A study of Mus musculus with 6 samples.

Results

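The germline piRNA pathway was followed through 10 genes in metaphase II (MII) oocytes of reproductively old ICR mice. They were chosen by name, as components of the pathway, and all 10 were found among the 60193 genes of the deposited FPKM matrix, under Ensembl identifiers. The members were the PIWI genes Piwil1, Piwil2 and Piwil4, the germ granule genes Ddx4 and Mael, the helicase gene Mov10l1, and Tdrkh, Pld6, Asz1 and Gpat2, whose proteins sit on mitochondria. Female ICR mice aged 42 to 45 weeks were the oocyte donors of both groups, and all had received PMSG. The 3 in vitro matured (IVM) samples came from immature oocytes that were stripped of cumulus cells and cultured in M16 medium for 12 h. The 3 in vivo matured (IVO) samples were ovulated oocytes collected from the oviduct 14 h after hCG, with the cumulus cells dispersed by hyaluronidase. Each sample was a pool of 20 oocytes from 3 mice, so the spread between samples is that between pools and not between single oocytes.

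PIWI proteins bind small RNAs called piRNAs and use them to find and silence transposons in germ cells. piRNA precursors are cut and trimmed on the surface of mitochondria and in the neighboring germ granules, also called nuage. In mice the pathway is best known from the testis, where loss of most of these genes blocks spermatogenesis, while females lacking them are usually fertile. Mouse oocytes hold piRNAs but also make endogenous siRNAs with an oocyte form of Dicer, and the mouse has no Piwil3 gene.

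The depth, worked out from the spacing of low FPKM values, was 16300000 to 19200000 fragments in IVM and 17900000 to 18200000 fragments in IVO samples. The libraries differed between the groups in the inferred mean fragment length, which was 202 to 214 bases in IVM against 250 to 266 bases in IVO libraries. The summed FPKM of a library was 1826740 to 2111780 in the IVM group against 1560810 to 1643680 in the IVO group. All 10 oocyte markers had a mean of at least 1 FPKM, with a summed level of 12619 to 15465 FPKM in IVM and 10289 to 11023 FPKM in IVO samples. Dppa3 gave the largest part of this sum, at a mean of 6901 FPKM in IVM and 6016 FPKM in IVO samples. In 6 of the 10 every IVO value lay below every IVM value, and in 1 above, against 32.6% and 9.62% of all tested genes. The largest fold was that of Zp2, at a mean of 562 FPKM in IVM and 39.9 FPKM in IVO samples. Of 13 cumulus and granulosa cell markers, 4 reached a mean of 1 FPKM (Nr5a2, Cyp19a1, Fshr and Kitl), Amh was listed at 0 in all 6 samples, and their sum was 64.0 to 66.2 FPKM in IVM and 46.4 to 55.3 FPKM in IVO samples. The lower IVO sum came from Nr5a2, at a mean of 34.0 FPKM in IVM and 15.9 FPKM in IVO samples, the 1 marker of the 13 with every IVO value below every IVM value. Of the cumulus expansion genes, Has2, Ptx3 and Tnfaip6 lay above their IVM values in every IVO sample, while the groups of Ptgs2 overlapped. The means of Has2, Ptx3 and Tnfaip6 were 0.30, 0.113 and 0.427 FPKM in IVO against 0.0933, 0.02 and 0.0567 FPKM in IVM samples. They were worth at most 26.6, 5.05 and 12.8 fragments in a library, and Ptx3 passed the level that 3 fragments give in only 1 library. The mean of Ptgs2 was 0.36 FPKM in IVO against 0.0967 FPKM in IVM samples. Of 6 blood markers, 1 reached a mean of 1 FPKM, and their sum was 1.49 to 2.72 FPKM in IVM and 1.88 to 7.89 FPKM in IVO samples. These markers also differ between the groups, and their part in the results was not tested. Fewer transcripts per oocyte and a shorter poly(A) tail, from which the cDNA was primed, cannot be told apart in these libraries.

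Of the 10 genes, 5 were present at a clear level and 5 were close to or under 1 FPKM. FPKM is a level per length of transcript, and the genes were ordered by it. This order need not be that of transcript number, since tail length also enters in these libraries. Asz1 was the highest by far, with a mean of 197 FPKM over the 6 samples, followed by Ddx4 at 18.6, Mael at 15.8, Tdrkh at 9.72 and Piwil1 at 8.91 FPKM. Mov10l1 had a mean of 0.852 FPKM, Pld6 of 0.43, Piwil2 of 0.157, Piwil4 of 0.0417 and Gpat2 of 0.0183 FPKM. The order of the neighbors was partly within the spread between pools: in IVM samples the values of Ddx4 and Mael overlapped, as did those of Tdrkh and Piwil1. In IVO samples every Ddx4 value was above every value of Tdrkh, Mael and Piwil1, and these latter genes overlapped in the order given, Tdrkh with Mael and Mael with Piwil1.

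**Figure D1:**
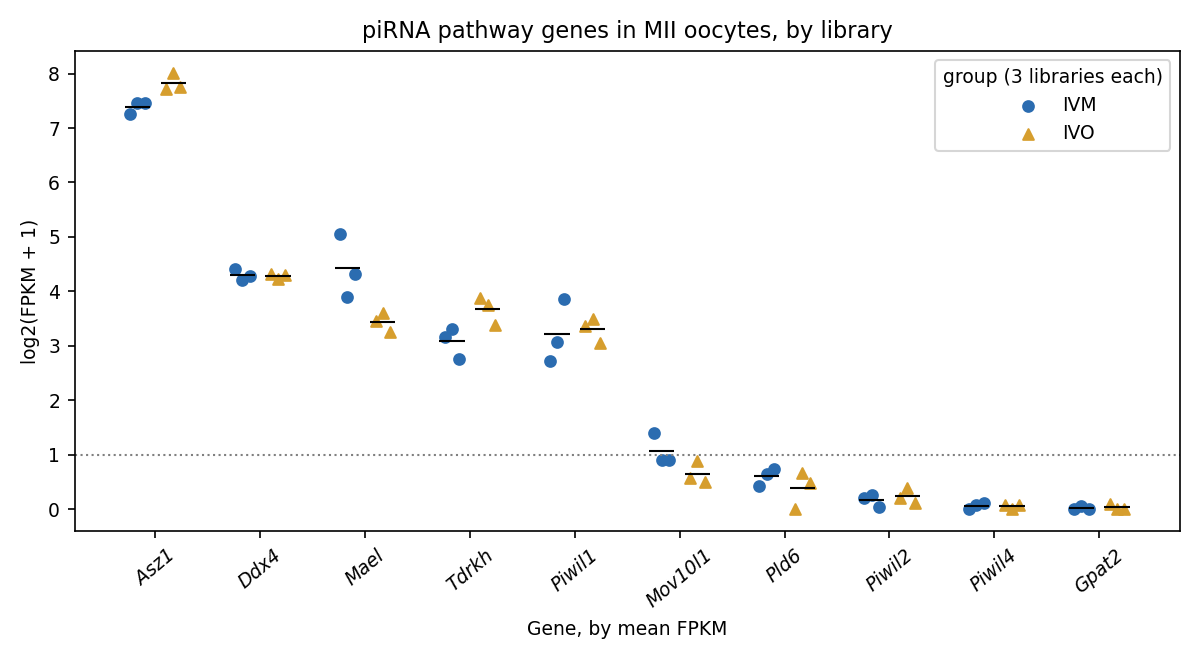
Level of each member as log2(FPKM + 1) in each of the 6 libraries, with circles for the 3 IVM and triangles for the 3 IVO samples, a bar for the mean of each group, and a dotted line at 1 FPKM. Asz1 stood far above the rest, and Pld6, Piwil2, Piwil4 and Gpat2 lay under 1 FPKM in every library.

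By FPKM, the PIWI transcripts of these oocytes were almost entirely those of Piwil1, which encodes MIWI. Piwil1 (ENSMUSG00000029423, chromosome 5 from 128779588 to 128832538, GRCm39) was at 5.62, 7.41 and 13.5 FPKM in IVM and at 9.33, 10.3 and 7.30 FPKM in IVO samples. The IVM pools held both the lowest and the highest value, and the groups overlapped. Piwil2, which encodes MILI (chromosome 14 from 70609365 to 70666832), was at 0.16, 0.20 and 0.03 FPKM in IVM and at 0.16, 0.31 and 0.08 FPKM in IVO samples. Piwil2 was above the level that 3 fragments give in 5 of the 6 libraries, and its values were worth 2.71 to 25.9 fragments. Piwil4, which encodes MIWI2 (chromosome 9 from 14607526 to 14652036), was at 0, 0.05 and 0.08 FPKM in IVM and at 0.06, 0 and 0.06 FPKM in IVO samples. Piwil4 passed 3 fragments in 3 libraries and was worth at most 4.79 fragments, and in the other libraries it was within the limit that a count of 0 allows.

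Within a library, Piwil1 took 96.7% to 99.2% of the summed FPKM of the PIWI genes. The share of Piwil2 was 2.77%, 2.61% and 0.220% in IVM and 1.68%, 2.92% and 1.08% in IVO samples, a mean of 1.87% ± 1.43 (SD, n = 3) against 1.89% ± 0.942 (SD, n = 3). The shares of the groups overlapped, and a two-sided exact permutation test gave p = 1.0, where 3 against 3 samples cannot go below 0.1. The sign of this difference rests on single pools: it was 0.0243 percentage points in all 6, but -0.799 without the third IVM sample and -0.491 without the second IVO sample.

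Ddx4, which encodes the RNA helicase VASA of the germ granules, was the steadiest member. Ddx4 (ENSMUSG00000021758, chromosome 13 from 112734867 to 112789009) was at 20.4, 17.5 and 18.5 FPKM in IVM and at 19.1, 17.7 and 18.7 FPKM in IVO samples. The IVO values lay inside the range of the IVM values. The log2FC was -0.02 (95% interval -0.44 to 0.40, limma adjusted p = 0.949), so a change by a factor of 2 in either direction lay outside the interval with the FPKM as deposited. Its values were worth 873 to 994 fragments. Relative to the other genes tested, Ddx4 stood at the 60.8 to 62.7 percentile in IVM and at the 66.8 to 67.5 percentile in IVO samples, and its log2FC turned to 0.28 with median-ratio scaling.

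Mael, which encodes Maelstrom, an HMG-box protein of the nuage needed for transposon repression, had the largest difference among the members tested. Mael (ENSMUSG00000040629, chromosome 1 from 166028770 to 166066331) was at 32.1, 13.9 and 18.9 FPKM in IVM and at 9.92, 11.2 and 8.54 FPKM in IVO samples. Every IVO value lay below every IVM value, and the first IVM sample stood well above the other IVM samples. The mean was 21.6 ± 9.38 FPKM (SD, n = 3) in the IVM pools against 9.87 ± 1.31 FPKM (SD, n = 3) in the IVO pools, 2.19-fold higher in IVM. The log2FC of -0.99 (standard error, SE, 0.31, limma adjusted p = 0.0604) passed neither threshold for a differentially expressed gene (DEG). Without the second IVM sample it was -1.25 with an adjusted p of 0.0433, a DEG, and without the first IVM sample it was -0.67 with an adjusted p of 0.129. Mael was also a DEG once the trend of the log2 values with gene length was removed (log2FC -1.13, adjusted p = 0.0345), though not with the replicate block added (adjusted p = 0.0668). Its difference was smaller on other scales. The log2FC was -0.68 with median-ratio scaling (limma adjusted p = 0.145) and -0.67 with same-sum scaling (adjusted p = 0.172). With quantile normalization it was -0.48 (adjusted p = 0.262).

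Asz1 and Tdrkh encode proteins of the outer mitochondrial membrane, where piRNA precursors are processed. Asz1, also called GASZ, is an ankyrin-repeat scaffold of the nuage. Asz1 (ENSMUSG00000010796, chromosome 6 from 18050848 to 18109060) was at 151, 176 and 176 FPKM in IVM and at 209, 258 and 215 FPKM in IVO samples. Every IVO value lay above every IVM value, with a mean of 168 ± 14.2 FPKM (SD, n = 3) in the IVM pools against 227 ± 26.8 FPKM (SD, n = 3) in the IVO pools, 1.36-fold higher in IVO. Its log2FC was 0.44 (SE 0.17, limma adjusted p = 0.107), and its values were worth 3752 to 6874 fragments. Asz1 stood at the 88.3 to 90.3 percentile of the tested genes in IVM and at the 93.1 to 94.3 percentile in IVO samples.

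Tdrkh encodes a tudor and KH domain protein that holds PIWI proteins at mitochondria while piRNA ends are trimmed. Tdrkh (ENSMUSG00000041912, chromosome 3 from 94320453 to 94342614) was at 7.98, 8.97 and 5.80 FPKM in IVM and at 13.7, 12.5 and 9.44 FPKM in IVO samples. The IVO values again lay above the IVM values. The mean was 1.56-fold higher in IVO, with a log2FC of 0.59 (SE 0.24, limma adjusted p = 0.125). The exons of Tdrkh overlap those of Oaz3 on the other strand by 2592 bases, and the sources used here do not state that strand was used in counting. Oaz3 was at 1.90, 1.86 and 2.93 FPKM in IVM and at 1.82, 0.86 and 2.26 FPKM in IVO samples, below Tdrkh in every library, and its groups overlapped. The exons of Mael, Piwil4 and Pld6 also share 135, 137 and 434 bases with genes on the other strand.

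The processing enzymes of the list were low, and Pld6 and Gpat2 were near the limit of detection. Mov10l1, a helicase that binds piRNA precursors (chromosome 15 from 88867085 to 88939371), was at 1.63, 0.86 and 0.87 FPKM in IVM and at 0.49, 0.85 and 0.41 FPKM in IVO samples. It was above the level of 3 fragments in all 6 libraries, worth 28.7 to 104 fragments. The groups did not overlap, but by only a hundredth of an FPKM, and the gene fell short of the mean of 1 FPKM required for testing. Pld6, the mitochondrial nuclease also called Zucchini (chromosome 11 from 59656064 to 59678491), was at 0.35, 0.57 and 0.67 FPKM in IVM and at 0, 0.59 and 0.40 FPKM in IVO samples, worth at most 9.53 fragments. The gene that shares 434 exonic bases with Pld6 is Mprip, at 6.54 to 20.68 FPKM, so the Pld6 fragments cannot be assigned with certainty. Gpat2, an acyltransferase of the mitochondrial membrane (chromosome 2 from 127267060 to 127279393), was listed at 0 in 4 of the 6 libraries and was at 0.04 and 0.07 FPKM in the second IVM and the first IVO sample. Gpat2 shares 3685 exonic bases with Fahd2a on the other strand, which was at 1.20 to 14.04 FPKM, so even these few fragments cannot be assigned with certainty.

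None of the 5 tested members was a DEG by limma (|log2FC| ≥ 1 and adjusted p under 0.05), in a comparison where 18.5% of the 18818 tested genes were. Among all tested genes the DEGs lower in IVO made up 17.9% (3366) and the higher ones 0.606% (114), and with median-ratio scaling these were 11.3% (2130) and 2.05% (385). At an unadjusted p under 0.05, Mael was lower and Asz1 and Tdrkh were higher in IVO, against 31.4% of all tested genes lower and 5.56% higher. The values of the groups did not overlap in these 3 of the 5 members, against 42.2% of all tested genes (32.6% with IVO below IVM and 9.62% with IVO above). The median log2FC was 0.09 over the 5 tested members and -0.30 over all tested genes. Median-ratio scaling moved the median of all genes to -0.04. On that scale the limma log2FC was 0.87 for Tdrkh (adjusted p = 0.0447) and 0.76 for Asz1 (adjusted p = 0.0301). It was 0.37 for Piwil1 (adjusted p = 0.394), 0.28 for Ddx4 (adjusted p = 0.259) and -0.68 for Mael (adjusted p = 0.145). Tdrkh and Asz1 then had an adjusted p under 0.05 while remaining under the fold threshold. Mael no longer had an unadjusted p under 0.05 on that scale. With the length trend removed, the limma adjusted p was 0.299 for Tdrkh and 0.283 for Asz1.

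**Figure D2:**
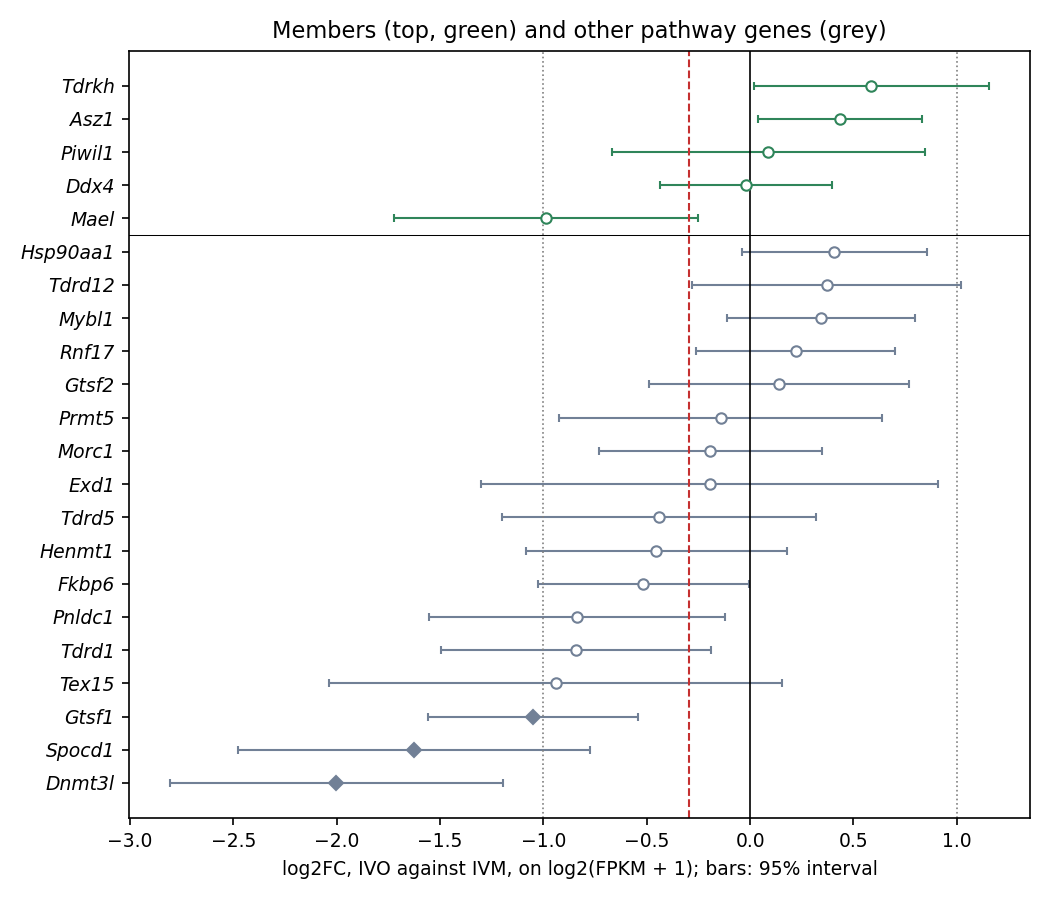
log2FC of IVO against IVM on the log2(FPKM + 1) scale for the 5 tested members (green, top) and the 17 tested genes of the wider pathway list (grey), with 95% intervals from limma; filled diamonds are DEGs, dotted lines mark the fold threshold and the dashed line is the median of all tested genes, -0.30. The 3 DEGs, all with negative values, belong to the wider list.

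Ratios between members of the same library do not change when all its genes are scaled by a common factor. Quantile normalization and removal of the length trend can change them. The ratio of Mael to Ddx4 was 1.58, 0.795 and 1.02 in IVM and 0.520, 0.632 and 0.457 in IVO samples, without overlap. The ratio of Asz1 to Ddx4 was 7.42, 10.02 and 9.53 in IVM and 11.0, 14.6 and 11.5 in IVO samples, again without overlap. The ratio of Tdrkh to Ddx4 was 0.392, 0.512 and 0.314 in IVM and 0.715, 0.707 and 0.505 in IVO samples, so the lowest IVO sample reached into the IVM range. The ratio of Piwil1 to Ddx4 overlapped, with a mean of 0.477 ± 0.233 (SD, n = 3) in the IVM pools against 0.488 ± 0.0964 (SD, n = 3) in the IVO pools. For Asz1 and Mael, whose groups did not overlap in opposite directions, the ratio was 4.71, 12.6 and 9.32 in IVM and 21.1, 23.1 and 25.2 in IVO samples. The groups of the ratio of Asz1 to Mael had to separate, given how this pair was picked, so nothing is read from it. All these ratios were chosen after the levels were seen and are given without a test.

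**Figure D3:**
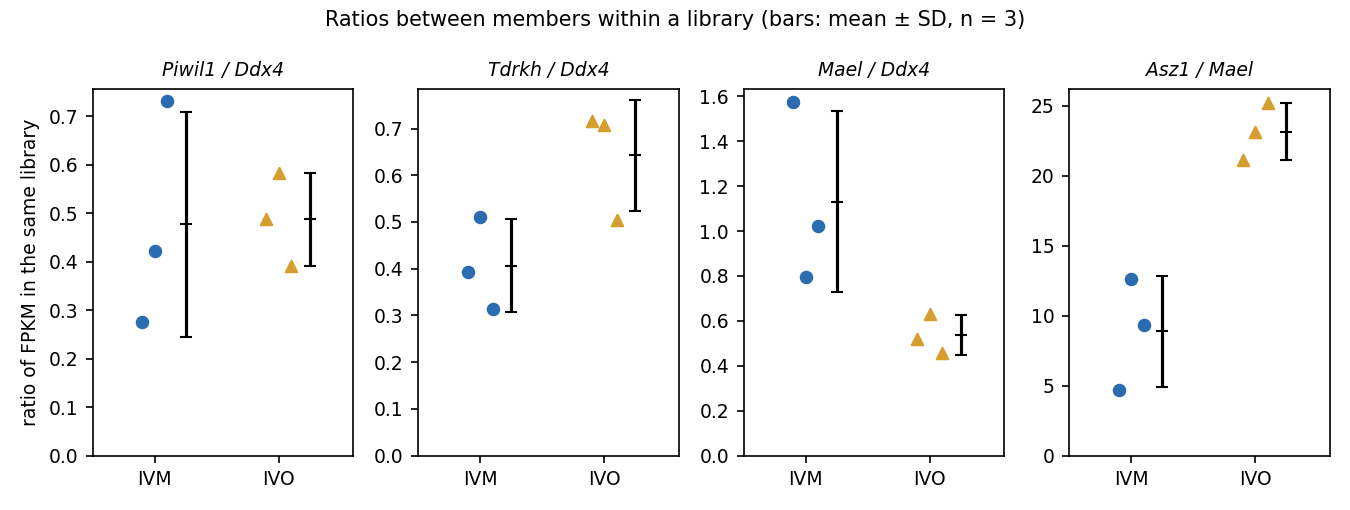
Ratio of the FPKM of members in the same library (Piwil1, Tdrkh and Mael to Ddx4, and Asz1 to Mael), by group, with circles for IVM and triangles for IVO samples and the mean ± SD (n = 3) beside them. The ratio of Asz1 to Mael was 4.71 to 12.6 in the IVM and 21.1 to 25.2 in the IVO samples. This separation follows from the choice of the pair. The ratio of Piwil1 to Ddx4 overlapped.

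The wider pathway was followed in 24 further genes, of which 17 passed the filter on low values. By limma, 3 of the 17 were lower DEGs and none was a higher DEG, against 17.9% and 0.606% of all tested genes. At an unadjusted p under 0.05, 6 were lower and none was higher, against 31.4% and 5.56% of all tested genes. This split depends on the scaling. With median-ratio scaling 3 were lower and 4 higher, against 22.4% and 15.8% of all tested genes, and with quantile normalization 3 were lower and 4 higher, where 3205 of all tested genes were lower and 4729 higher. The median log2FC of the 17 was -0.44, but -0.18 on the median-ratio scale and 0.03 after quantile normalization. The median of all tested genes moved with it, at -0.30, -0.04 and 0.17 in the same order, and was above that of the 17 each time.

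The 3 DEGs were Dnmt3l, Spocd1 and Gtsf1. Dnmt3l, the cofactor of the de novo DNA methyltransferases that is required for maternal imprints, was at 31.0, 13.9 and 28.4 FPKM in IVM and at 4.55, 4.10 and 6.69 FPKM in IVO samples. Its log2FC was -2.001 (SE 0.34, limma adjusted p = 0.00786), and it stayed a DEG in all 17 alternatives tried. Spocd1, a nuclear partner of MIWI2 in piRNA-directed DNA methylation, was at 23.2, 10.9 and 12.0 FPKM in IVM and at 2.56, 4.24 and 5.83 FPKM in IVO samples. Its log2FC was -1.63 (SE 0.36, limma adjusted p = 0.0191), and 11 of the 17 alternatives kept the call. It was lost with quantile normalization and with the replicate block, alone or with the length trend removed. It was also lost without the first IVM sample (log2FC -1.31, adjusted p = 0.0598), the first IVO sample (log2FC -1.38, adjusted p = 0.0541) and the second IVO sample (log2FC -1.66, adjusted p = 0.0509), where the fold stayed over the threshold. Gtsf1, a zinc finger protein that helps PIWI proteins cut their targets, was at 201, 139 and 138 FPKM in IVM and at 81.8, 80.3 and 64.8 FPKM in IVO samples. Its log2FC was -1.05 (SE 0.22, limma adjusted p = 0.0147), and 10 of the 17 alternatives kept the call. It was lost with median-ratio, quantile and same-sum scaling, with the length trend removed (with and without the block), without the first IVM sample (log2FC -0.87) and without the third IVO sample (log2FC -0.94). In all 3 genes every IVO value lay below every IVM value, as in 32.6% of all tested genes, and since they were named as DEGs nothing is read from this. The exons of Dnmt3l share 67 bases with Aire and those of Spocd1 share 60 bases with Gm68487, both on the other strand.

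The most abundant genes of the wider list other than Gtsf1 were Hsp90aa1 and Tdrd12. Hsp90aa1, a general chaperone that also takes part in loading small RNAs, was at 5819 ± 1297 FPKM (SD, n = 3) in the IVM pools against 7606 ± 729 FPKM (SD, n = 3) in the IVO pools (limma adjusted p = 0.167). Its lowest IVO value, 6900 FPKM, lay just above its highest IVM value, 6861 FPKM. Such a separation, with IVO above IVM, held for 9.62% of all tested genes. Tdrd12, a tudor domain helicase, was at 107 ± 27.0 FPKM (SD, n = 3) in the IVM pools against 139 ± 35.5 FPKM (SD, n = 3) in the IVO pools (limma adjusted p = 0.382). The genes nearest to a call were Tdrd1, a tudor protein that binds PIWI proteins, Pnldc1, the exonuclease that trims piRNA ends, and Fkbp6, a co-chaperone. Their log2FC was -0.84, -0.84 and -0.52, with an adjusted p of 0.0684, 0.0909 and 0.132 from limma. In each the IVO values lay below the IVM values, as in 32.6% of all tested genes. Since they were named for a low p, nothing is read from this. Pnldc1 became a DEG without the third IVM sample (log2FC -1.06, adjusted p = 0.0449). Btbd18, a nuclear factor for piRNA gene transcription, was listed at 0 in all 6 libraries.

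Among the 13153 other named Ensembl genes tested, those whose log2(FPKM + 1) followed Asz1 most closely over the 6 samples were Zfp846 (Pearson's r = 0.981), Faim (r = 0.981) and Mdm4 (r = 0.979). Those closest to Mael were Sesn3 (r = 0.995), Zdhhc13 (r = 0.993) and Gm52969 (r = 0.992). In all, r was over 0.95 for 39 of these genes with Asz1 and for 163 with Mael. Of the genes closest to Mael, Sesn3 was at 31.9, 21.7 and 23.9 FPKM in IVM and at 18.4, 19.4 and 16.2 FPKM in IVO samples, with the first IVM sample the highest, as in Mael.

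What the members share beyond their names was read from the annotation and the sequence. In the deposited annotation 8 of the 10 members, all except Ddx4 and Gpat2, carry the term piRNA metabolic process, which 16 named genes hold in all, and 4 (Piwil2, Mov10l1, Tdrkh and Asz1) carry the term pi-body, which 6 named genes hold. All 10 are protein-coding in GENCODE, with 2 exons in the canonical transcript of Pld6 and 12 to 27 in the other members.

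Promoter windows of 250 bases before and 50 bases after the start were taken from RefSeq (GRCm38.p6), where 9 members had an entry in 11 windows and Piwil2 had none. The E-box CACGTG, which reads the same on both strands, stood in 5 of the 11 member windows and in 7.15% of all 32851 windows. The members with it were Mael, Piwil1, Pld6, Ddx4 and Mov10l1, which span the range of levels from 0.43 to 18.6 FPKM, and Asz1, the highest, did not hold it. The other motif searched, TCCCGC on either strand, stood in 3 of the 11 member windows and in 19.98% of all windows. These were the windows of Mael, Gpat2 and Ddx4, and those of Mael and Ddx4 also hold the E-box, at other bases. The median number of CG dinucleotides was 18 in the member windows and 7 in all windows. Both motifs contain a CG, and the shares over all windows were not matched for CG content. The following stretches are given because 5 of the 9 members with an entry hold the E-box, which is in capitals. Each is 30 bases on the strand of the gene in GRCm38.p6. They lie at chr1:166238950-166238979 (minus strand) for Mael, chr5:128736055-128736084 (plus) for Piwil1, chr11:59787673-59787702 (minus) for Pld6, chr13:112652322-112652351 (minus) for Ddx4 and chr15:88982744-88982773 (plus) for Mov10l1.
Mael: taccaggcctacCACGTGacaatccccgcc
Piwil1: aaaaccgccaccCACGTGgcagccaatcag
Pld6: ggggcgggctggCACGTGttgggcgcgcaa
Ddx4: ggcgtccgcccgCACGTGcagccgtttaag
Mov10l1: ccttCACGTGctaaccgccaacctctcgtg
Counted from the start site, the motif began at base -223 in Mael, -179 in Piwil1, -33 in Pld6, -29 in Ddx4 and -246 in Mov10l1. The Piwil1 window holds the motif again at base -154, and the other window of Pld6 does not hold it. A match of letters is a description and not a bound site.

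The cDNA was primed at poly(A) tails, and in maturing oocytes tail length is set by elements near the 3′ end, such as the cytoplasmic polyadenylation element TTTTAT. In the last 100 bases of the canonical GENCODE transcript, on the sense strand, TTTTAT was found in 3 of the 10 members (Piwil2, Ddx4 and Asz1) and in 14.3% of the 10344 tested protein-coding genes. A polyadenylation signal, AATAAA or ATTAAA, was found in the last 40 bases in 5 members and in 72.9% of these genes. All of these genes passed the filter on low values, while only 5 of the 10 members did. Of the tested members, Ddx4 and Asz1 held TTTTAT, and Piwil1, Ddx4 and Asz1 held a signal. The ends of the most abundant members with a signal are given in GRCm39, with the signal and, in Asz1, the TTTTAT in capitals. They lie at chr6:18050848-18050877 (minus strand) for Asz1, chr13:112734878-112734907 (minus) for Ddx4 and chr5:128832504-128832533 (plus) for Piwil1.
Asz1: tttAATAAAgatcatcttacttTTTTATtt
Ddx4: attttccttgcaAATAAAagatgaaacaca
Piwil1: ctggcacagctcAATAAAgtttctgtctca
In Asz1 the TTTTAT ended 2 bases before the annotated end, and in Ddx4 it stood 50 bases before the end, outside the stretch shown. Mael and Tdrkh had neither motif in these windows. The transcript end used in oocytes may differ from the annotated one.

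**Figure D4:**
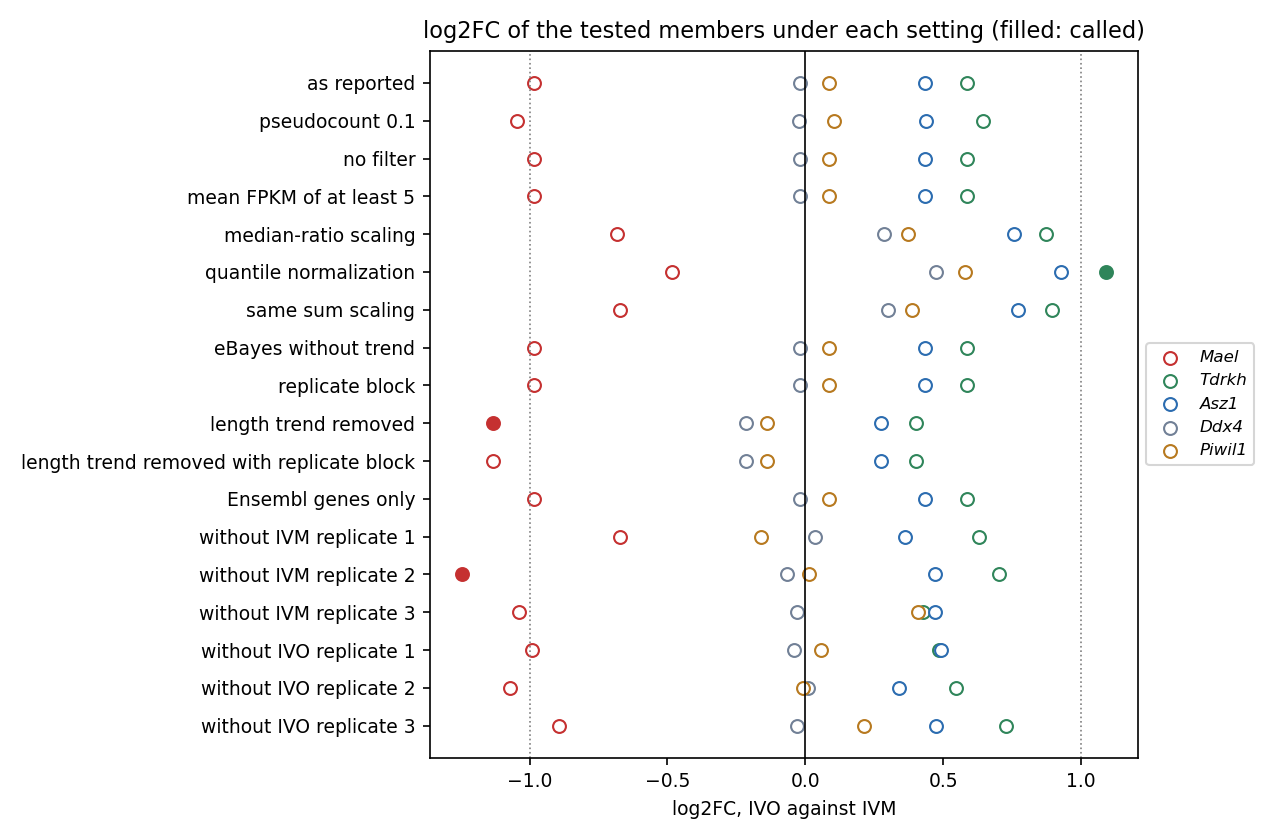
log2FC of the 5 tested members (columns of colored circles) with the FPKM as deposited and under each alternative, one setting per line; filled circles are DEGs and dotted lines mark the fold threshold. Mael lay between -1.25 and -0.48, Tdrkh between 0.40 and 1.09 and Asz1 between 0.27 and 0.93, while Ddx4 and Piwil1 lay on both sides of 0.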

How the data were processed

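RNA-seq of 6 pools of MII oocytes was used. The authors amplified cDNA with the SMART-Seq v4 kit, aligned reads to GRCm39 with HISAT2 2.1.0 and deposited FPKM per gene from RSEM 1.3.3, with group means that were not used. Groups and replicate numbers came from the sample titles. Members and gene lists were chosen with earlier results of these data known. Depth was inferred from 12961 genes with 1 annotated transcript: of their low values, 76.8% to 80.1% per library came out whole within 0.15 fragments. Floors of 3 fragments cover counting error only. A count test was not run, since the FPKM did not give whole fragments for nearly all genes.

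IVO was compared with IVM by limma 3.58.1 in R 4.3.3 (lmFit, eBayes with trend, two-sided) on log2(FPKM + 1). The fit took in 18818 genes whose mean reached 1 FPKM, with Benjamini-Hochberg adjustment over all of them; this scale understates the change of low genes. DEGs had |log2FC| ≥ 1 and adjusted p under 0.05, the thresholds of the study. The text names all members and, of the wider list, the DEGs, the 3 genes with the highest mean FPKM and the 3 with the lowest p that were not DEGs. Btbd18 was named after its values were seen, as were Oaz3, Fahd2a and Mprip, which overlap members. Per member, the 3 most similar genes were named for the highest member and for the one with the largest difference. The pseudocount was also set to 0.1, the filter was dropped or raised to 5 FPKM, and further alternatives were median-ratio, quantile and same-sum scaling, eBayes with no trend, a replicate block, removal of the length trend (lowess, span 0.3), Ensembl genes only, and leaving out each sample.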

Additional observations from a re-analysis of the deposited data

How the results depend on the processing

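No DEG among the members was the result in 14 of the 17 alternatives. The exceptions were 1 member lower in IVO with the length trend removed (Mael), 1 higher with quantile normalization (Tdrkh), and 0 to 1 lower when single samples were left out, the 1 being Mael without the second IVM sample. The DEGs of the wider list numbered 1 with quantile normalization and 1 to 4 when single samples were left out, the 1 without the first IVM sample. The count over all genes was 2056 of 13154 tested with Ensembl genes only, against 3480 of 18818 with the assembled loci included. With quantile normalization 1580 genes were lower and 1097 higher. The log2FC of Piwil1 turned to -0.14 with the length trend removed, with and without the replicate block, and ranged from -0.16 to 0.41 when single samples were left out. That of Ddx4 turned to 0.28 with median-ratio scaling, 0.48 with quantile normalization and 0.30 with same-sum scaling, and ranged from -0.066 to 0.036 when single samples were left out. The difference in the Piwil2 share ranged from -0.799 to 0.475 percentage points when single samples were left out. The causes were not tested. Same-numbered samples did not deviate together (r of -0.062, -0.018 and -0.107), and for other-numbered samples r was -0.023 to 0.081. These are deviations from means of 3 samples, so they cannot settle whether same-numbered pools were handled together. With the replicate block 2991 genes were DEGs, none of them a member. The 5 members under a mean of 1 FPKM were worth at most 104 fragments in a library, which limits what could be detected; without a filter their adjusted p was 0.296 to 0.959.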

Other observations

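Among the tested protein-coding genes, the median log2FC of IVO against IVM was -0.03 for the 1480 with TTTTAT in the last 100 bases of the canonical transcript and -0.18 for the 8864 without it. Genes are not independent replicates, so no test was made.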
